A study of Homo sapiens with 11 samples.

Results

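The genes that encode the subunits of the BAF chromatin remodelling complexes were examined as a group of loci: 31 genes of 20033 protein-coding genes. They were chosen by name as known subunits, with earlier results of these data known. Each gene was given a window of its RefSeq gene body on GRCh38 with 5 kb on either side, and the peaks of each antibody that touched the window were counted. Chromatin immunoprecipitation with sequencing (ChIP-seq) was done in 92-1 cells, an established line of uveal melanoma, a tumour of the pigment cells of the eye. All libraries came from this line, which served as the model for every value below. The cells were kept for 4 h in DMSO, the solvent, or in FHT-1015, which blocks the ATPases SMARCA4 (BRG1) and SMARCA2. The antibodies were against H3K27ac, an acetylated histone mark of active promoters and enhancers, against SMARCA4, and against the transcription factors MITF, TFAP2A (called AP-2 in the sample titles) and SOX10. Each antibody had 1 library per condition, so there was no replicate, no test was made, and every difference is one between 2 libraries. An input library of DMSO cells had no peak list used here.

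BAF complexes use the energy of ATP to slide or evict nucleosomes and so open DNA to other proteins. Each complex holds either SMARCA4 or SMARCA2 as its motor, a core, a small module of actin-related proteins bound to the motor, and accessory subunits that make it canonical BAF, PBAF or non-canonical BAF. Many subunits come as paralogues, of which one member is broadly expressed and another is known from neurons, muscle or blood cells. In pigment cells SMARCA4 is known to work with MITF and SOX10. Here 24 genes were taken as broadly expressed and 7 as tissue-restricted, from general knowledge of the family: SMARCD3, ACTL6B, DPF1, DPF3, SS18L1, BCL11A and BCL11B.

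A peak here is a region called by the authors in 1 library, and the lists reach down to a −log10 p of 2.0, so that they hold weak peaks. Peaks of DMSO are described as retained where the FHT-1015 list of that antibody held a peak overlapping them by 1 bp or more. The number of reads at a peak's summit was recovered from its deposited fold and p-value and is given as reads. Depth differed between the libraries of an antibody: relative to DMSO, the FHT-1015 library held 1.05 times the reads for H3K27ac, 0.918 times for SMARCA4, 0.854 times for MITF, 0.960 times for TFAP2A and 1.15 times for SOX10. Depth limits which weak peaks can be called, and its part in the differences was not tested. In DMSO, H3K27ac lay at the start of 6 of 6 melanocytic marker genes with an annotated start, at 0 of 3 lymphoid and 0 of 1 epithelial marker genes, and at 2 of 4 neuronal ones, GAD1 and SLC17A7.

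The promoter sequences shown next are those the results turn on: both ATPase genes, the paralogues at which peaks appeared or vanished at the start, and a promoter with a strong TFAP2A peak. Each is the stretch of 250 bases before an annotated start, from RefSeq on GRCh38.p14, written 5′ to 3′ along the gene. Capitals mark matches on either strand to 4 motifs: GCCNNNGGC for TFAP2A, CACGTG for MITF, ACAAAG for SOX10 and, as another motif known for MITF, CATGTG. None of the 4 contains another.
SMARCA4, chr19:10960780-10961029, plus strand: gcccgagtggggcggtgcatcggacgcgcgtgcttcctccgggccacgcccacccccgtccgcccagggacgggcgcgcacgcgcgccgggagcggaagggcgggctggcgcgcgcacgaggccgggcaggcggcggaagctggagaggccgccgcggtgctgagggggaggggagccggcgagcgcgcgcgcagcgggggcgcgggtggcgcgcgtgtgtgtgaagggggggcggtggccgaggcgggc
SMARCA2, chr9:2157412-2157661, plus strand: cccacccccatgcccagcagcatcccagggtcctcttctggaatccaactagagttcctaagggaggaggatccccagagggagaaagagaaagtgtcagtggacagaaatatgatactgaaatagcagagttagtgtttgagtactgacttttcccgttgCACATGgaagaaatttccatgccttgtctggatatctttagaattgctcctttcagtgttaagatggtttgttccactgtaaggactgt
ACTL6B, chr7:100656449-100656698, minus strand: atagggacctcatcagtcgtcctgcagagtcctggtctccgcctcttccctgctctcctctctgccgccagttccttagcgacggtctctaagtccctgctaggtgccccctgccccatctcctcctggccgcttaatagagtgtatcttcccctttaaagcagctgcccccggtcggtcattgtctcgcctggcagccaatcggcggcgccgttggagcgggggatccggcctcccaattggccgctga
BCL7B, chr7:73557691-73557940, minus strand: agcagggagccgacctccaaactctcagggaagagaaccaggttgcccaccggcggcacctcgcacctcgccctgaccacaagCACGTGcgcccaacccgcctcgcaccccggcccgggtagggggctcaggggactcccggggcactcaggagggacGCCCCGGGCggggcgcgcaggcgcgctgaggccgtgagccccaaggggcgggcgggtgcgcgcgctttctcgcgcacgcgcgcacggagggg
SS18L1, chr20:62143519-62143768, plus strand: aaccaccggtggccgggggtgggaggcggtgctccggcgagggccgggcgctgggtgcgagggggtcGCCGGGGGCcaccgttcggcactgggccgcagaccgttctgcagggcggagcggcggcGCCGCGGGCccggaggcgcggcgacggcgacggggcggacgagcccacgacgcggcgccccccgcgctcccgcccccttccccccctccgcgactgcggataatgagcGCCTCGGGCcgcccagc
BCL11B, chr14:99272198-99272447, minus strand: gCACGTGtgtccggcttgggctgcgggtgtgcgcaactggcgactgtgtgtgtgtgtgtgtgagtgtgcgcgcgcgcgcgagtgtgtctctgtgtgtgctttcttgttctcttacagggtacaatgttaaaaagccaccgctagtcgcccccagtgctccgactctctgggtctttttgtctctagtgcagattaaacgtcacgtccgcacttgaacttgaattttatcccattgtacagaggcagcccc
The SMARCA4 and ACTL6B stretches held none of the 4 motifs. The SMARCA2 stretch, before a start deep inside the gene, held CACATG, the other MITF motif read on the opposite strand, 89 bases before the start. SS18L1 held GCCNNNGGC 3 times, BCL7B held it once together with CACGTG, and BCL11B held CACGTG at its far end, 249 bases before the start. The bases were 82.4% G or C before SMARCA4 and 46.0% before the internal SMARCA2 start.

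Among the 26 subunit genes with an annotated start, 13 had GCCNNNGGC in the 250 bases before at least 1 start, against 29.3% of 15842 protein-coding genes. Of 35 genes of other remodellers (the ISWI, CHD, NuRD and INO80 families), 13 had it (37.1%). CACGTG was found at 3 of the 26 (11.5%, against 9.73%), CATGTG at 2 (7.69%, against 9.94%) and ACAAAG at 4 (15.4%, against 14.7%). Across all genes with a start, a TFAP2A peak lay within 1 kb of a start in DMSO at 84.9% of those with GCCNNNGGC and at 63.5% of those without. Among the subunit genes the figures were 13 of 13 and 12 of 13. A match is a description of the sequence and not a mapped binding site.

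Over the 31 windows and in the lists as deposited, SOX10 had the lowest share of peaks retained, and most H3K27ac, SMARCA4 and TFAP2A peaks were retained. SOX10 peaks fell in number from 235 in DMSO to 113 in FHT-1015, and 69 of the 235 were retained (29.4%, 95% Wilson interval 23.9 to 35.5%). Of the TFAP2A peaks, 202 of 290 were retained (69.7%, 64.1 to 74.7%). The retained share was 66.8% for SMARCA4 (175 of 262), 62.4% for H3K27ac (164 of 263) and 50.6% for MITF (84 of 166). With the lists cut to an equal number of peaks, SOX10 retained 54.5% and MITF 50%, so that the lowest share was then that of MITF. The intervals count peaks of these lists only and do not cover variation between cultures.

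The same shares over the windows of all protein-coding genes were 23.4% for SOX10, 63.4% for TFAP2A, 59.7% for SMARCA4, 64.4% for H3K27ac and 43.0% for MITF. Over 40 genes of other remodellers (the ISWI, CHD, NuRD and INO80 families) they were 24.1%, 68.6%, 71.7%, 67.1% and 46.5%. The shares of the subunit genes were higher than those of all genes for SOX10, TFAP2A, SMARCA4 and MITF and lower for H3K27ac, and in these lists SOX10 had the lowest share in all 3 sets of genes. Relative to DMSO, the length covered by SOX10 peaks was 0.383, by MITF peaks 0.843, by H3K27ac peaks 0.927, by TFAP2A peaks 1.02 and by SMARCA4 peaks 1.15. Over all genes these ratios were 0.282, 0.834, 0.816, 0.955 and 1.12.

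**Figure D1:**
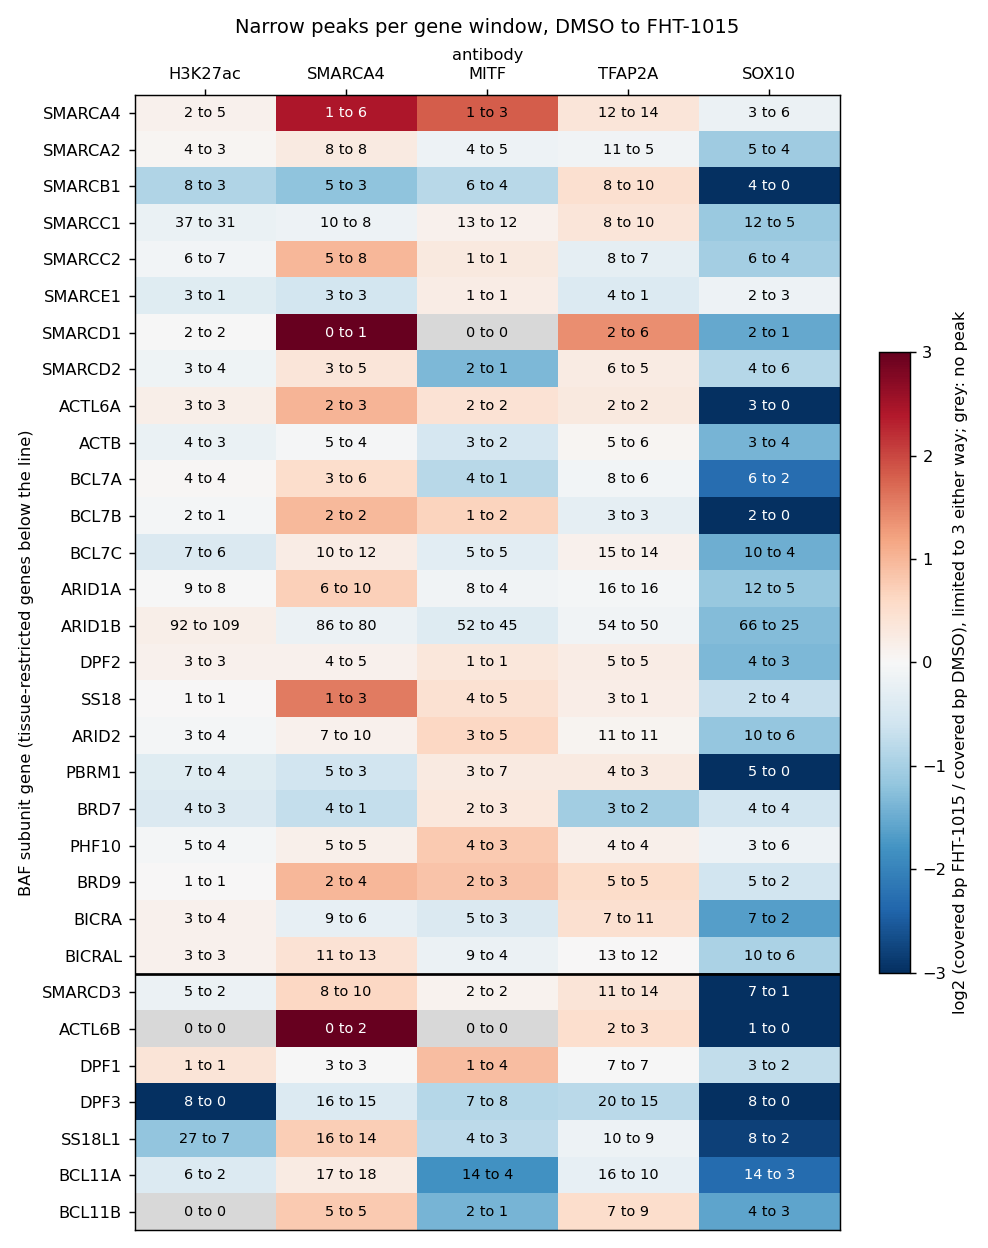
Narrow peaks in the window of each of the 31 BAF subunit genes (rows) for each antibody (columns), written as the number in DMSO to the number in FHT-1015, with the log2 ratio of covered length as colour (limited to 3 either way). The SOX10 column is blue, if pale at some genes, for all 31 genes, and the H3K27ac column is near white except at a few genes such as DPF3 (8 to 0) and SS18L1 (27 to 7).

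Counted gene by gene, covered SOX10 length in FHT-1015 was at most 0.5 of that in DMSO at 22 of 31 genes, where 78.3% of all genes with SOX10 coverage were called by the same rule, and no subunit gene reached 2-fold more (2.21% of all genes did). The share among the subunit genes lay near the background. With the lists cut to an equal number of peaks, 7 genes were at or below 0.5 for SOX10 and 6 reached 2-fold more. The shares of all genes in this paragraph belong to the lists as deposited and cannot be set against these 2 counts. In the lists as deposited, no SOX10 peak was left in FHT-1015 at 6 genes: SMARCB1, ACTL6A, ACTL6B, BCL7B, DPF3 and PBRM1. Subunit genes with a SOX10 peak thus went from 31 to 25. Over all 20033 genes those with a SOX10 peak went from 16339 to 11994. For H3K27ac, 2 of 29 genes were at or below 0.5, DPF3 and SS18L1 (14.2% of all genes), and 0 reached 2-fold more (3.77%). For SMARCA4 the count at or below 0.5 was 1 of 31, SMARCB1 (8.75%), and 6 reached 2-fold more (22.1%): SMARCA4 itself, SMARCD1, ACTL6A, ACTL6B, SS18 and BRD9. For MITF, 3 of 29 were at or below 0.5, BCL11A, BCL11B and SMARCD2 (22.7%), and 1, SMARCA4, reached 2-fold more (17.4%). For TFAP2A, 1 of 31 fell to 0.5 or less, BRD7 (11.7%), and 1 reached 2-fold more, SMARCD1 (7.87%).

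The ATPase genes retained all 6 of their H3K27ac and all 9 of their SMARCA4 peaks. Of their SOX10 peaks 4 of 8 were retained, as were 2 of 5 for MITF and 16 of 23 for TFAP2A. SMARCA4, on chromosome 19 at 10961030 to 11062273, encodes a motor that FHT-1015 inhibits, the one that the SMARCA4 antibody binds. H3K27ac at its start (chr19:10959659-10960813 in DMSO) had 135 reads at the summit in DMSO and 197 in FHT-1015, and the adjoining peak over the start had 92 and 142. The gene's covered SMARCA4 length went from 395 bp in 1 peak to 2130 bp in 6 peaks. The 1 peak of DMSO had 21 reads in each condition and was 1035 bp long in FHT-1015, and the 5 that appeared had 7 to 16 reads. TFAP2A just before the start (chr19:10960288-10960802) went from 36 to 68 reads, while TFAP2A over the start itself (chr19:10960995-10961276, 21 reads) was lost. SOX10 at the start went from 43 to 25 reads. MITF had 1 peak of 9 reads in DMSO, which was lost, and 3 in FHT-1015 of 7 to 14 reads.

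SMARCA2, the alternative motor, which FHT-1015 also blocks, lies on chromosome 9 at 2015347 to 2193620. It was examined for a gain as the paralogue of SMARCA4. All 4 of its H3K27ac peaks and all 8 of its SMARCA4 peaks in DMSO were retained. At the first start, 3 SMARCA4 peaks of 16, 12 and 20 reads between 2015855 and 2018377 were replaced by a continuous peak at chr9:2015996-2018594 with 45 reads. H3K27ac at the same place went from 32 to 45 reads and TFAP2A from peaks of 43, 28 and 17 reads to 1 of 53. At the internal start, whose promoter is printed above, the H3K27ac peak at chr9:2157036-2161530 went from 83 to 156 reads. TFAP2A there (chr9:2157218-2158031) moved the other way, from 67 to 31 reads. The MITF peak that covered the CACATG of this promoter in DMSO (chr9:2157366-2158124, 14 reads) was retained as a shorter peak. That FHT-1015 peak (chr9:2157694-2157986, 15 reads) lay inside the DMSO peak and did not cover the CACATG. SOX10 went from 5 to 4 peaks, and its covered length from 2705 to 1292 bp. The 2 motors therefore both showed more H3K27ac reads at their starts in FHT-1015, as did most genes (below).

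The core subunits hold the complex together and grip the nucleosome. SMARCB1, on chromosome 22, kept H3K27ac and TFAP2A at its start: H3K27ac went from 138 to 230 reads and TFAP2A from 95 to 98. SMARCA4 at the start went from 20 to 16 reads, and the 2 SOX10 peaks there, the stronger of 27 reads, were lost. Inside the gene, a site 29389 bp from the start carried MITF (chr22:23816355-23816783, 55 reads), SMARCA4 (chr22:23816351-23816708, 27 reads), H3K27ac (26 reads) and TFAP2A (80 reads) in DMSO. In FHT-1015 only TFAP2A was left there, with 28 reads. That SMARCA4 peak was the strongest of all SMARCA4 peaks lost from the subunit genes, and SMARCB1 retained 1 of its 5 SMARCA4 peaks. SMARCC1, a scaffold subunit, had 37 H3K27ac peaks in DMSO and 31 in FHT-1015, 21 of the 37 being retained. Its strongest SOX10 site (chr3:47716522-47717443) kept all 5 proteins, with SOX10 going from 94 to 60 reads, MITF from 223 to 188 and SMARCA4 from 42 to 64. SMARCC2, its paralogue, retained all 6 H3K27ac peaks and 3 of 6 SOX10 peaks. SMARCE1, which carries an HMG box, had 1 H3K27ac peak in place of 3, with 147 reads at the start in DMSO and 236 in FHT-1015. SMARCD1 had no SMARCA4 peak in DMSO and a weak one in FHT-1015 (−log10 p 4.02), and no MITF peak in either. SMARCD2 held a strong SOX10 peak on its start (chr17:63842560-63843583), which went from 98 to 40 reads, beside H3K27ac that went from 86 to 100.

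The ATPase module consists of actin, its relatives and the BCL7 proteins. ACTL6A, the broadly expressed actin-like subunit, retained 2 of 3 H3K27ac peaks and gained covered SMARCA4 length, from 936 to 1906 bp, while its 3 SOX10 peaks were lost. ACTB, which encodes beta-actin and was covered by H3K27ac over 46.4% of its short window in DMSO, had 40.2% in FHT-1015. BCL7A had TFAP2A at its start at 35 and 81 reads, the largest such increase among the subunit genes once scaled for depth (2.41-fold). BCL7B kept its TFAP2A peak over the printed GCCNNNGGC (chr7:73557697-73558333), with 99 and 116 reads, and lost both SOX10 peaks. BCL7C retained all 15 of its TFAP2A peaks, and a MITF peak seen only in FHT-1015 (chr16:30894216-30894682, 35 reads) lay 139 bp from its start; it was the strongest such MITF peak in the subunit genes.

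Of the canonical BAF subunits, ARID1B, a DNA-binding subunit with the longest gene body (434754 bp), held 92 of the 263 H3K27ac peaks and 86 of the 262 SMARCA4 peaks. Its H3K27ac peaks went from 92 to 109, with 46 seen only in FHT-1015, while its SOX10 peaks went from 66 to 25. Its strongest SOX10 site (chr6:157107802-157108890), 330424 bp from a start, was also the strongest of all subunit genes and was kept: SOX10 had 161 reads in DMSO and 174 in FHT-1015, MITF 201 and 222, and TFAP2A 179 and 218. Another strong site in the gene (chr6:157143389-157144724, SOX10 79 reads) was lost, and MITF there went from 94 to 15 reads. SOX10 loss was thus uneven within this gene. ARID1A, the paralogue, kept covered H3K27ac length almost as it was (12385 and 12384 bp), and its SOX10 peaks went from 12 to 5. DPF2, a PHD-finger subunit, retained all 3 H3K27ac and all 5 TFAP2A peaks. SS18, known from the fusion of synovial sarcoma, kept its H3K27ac peak, which went from 131 to 219 reads.

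Of the 19 H3K27ac peaks of the PBAF subunits 14 were retained, and none was seen only in FHT-1015. Their TFAP2A peaks were retained at 13 of 22, and their MITF peaks went from 12 to 18. ARID2, a DNA-binding subunit, went from 10 to 6 SOX10 peaks and PBRM1, which reads acetylated histones, from 5 to 0. PHF10 kept all 3 of its SOX10 peaks. BRD7 had the weakest H3K27ac at its start of the genes that had any, 20 reads in DMSO and 36 in FHT-1015, in peaks that do not overlap. In the non-canonical complex, all 7 H3K27ac peaks of BRD9, BICRA and BICRAL were retained. BRD9, the bromodomain subunit that defines this complex, had SMARCA4 at its start in both conditions. The peak with the best p-value had 16 reads in DMSO (chr5:892939-893164) and 37 in FHT-1015 (chr5:891363-892690). These 2 peaks do not overlap, and another DMSO SMARCA4 peak at this start had 26 reads. By p-value, BICRA had the strongest TFAP2A peak at a start (chr19:47607851-47608753), with 116 and 140 reads.

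H3K27ac at the starts rose together in the 2 libraries. All 19 broadly expressed genes with an annotated start had an H3K27ac peak within 1 kb of it in both conditions. Between conditions, reads at the strongest such peak, scaled for depth, were higher in FHT-1015 at 21 of the 22 subunit genes with a peak in both, with a median ratio of 1.53. The range was from 0.508 at SS18L1 to 1.95 at BCL11A, and SS18L1 was the 1 gene below 1. The same was seen over all genes, where the median was 1.38 over 9372 genes and 90.7% lay above 1. SMARCA4 reads at the starts had a median ratio of 1.31 over 23 subunit genes (1.46 over all genes), TFAP2A 1.18 over 24 (1.09), MITF 1.21 over 13 (1.04) and SOX10 0.621 over 18 (0.546). The strongest peak was taken in each library, so that the summits compared lay at different places at some genes. For H3K27ac the 2 peaks did not overlap at SS18L1, ARID1B and BRD7. The FHT-1015 peak over the SS18L1 DMSO peak of 298 reads had 169 reads. For TFAP2A the SMARCA2 and BCL11A peaks compared lay at different starts, and those of SMARCD1 and BRD7 did not overlap. For MITF the peaks compared at SMARCA4 and ARID1B did not overlap. Some of those compared for the SMARCA4 and SOX10 antibodies did not overlap either.

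An H3K27ac peak within 1 kb of a start was found at all 19 broad and 3 of 7 restricted genes, against 60.7% of all genes in DMSO and 60.6% in FHT-1015. Of the 7 restricted genes, SMARCD3, SS18L1 and BCL11A had H3K27ac at a start in both conditions, and ACTL6B, BCL11B, DPF1 and DPF3 had it in neither. TFAP2A lay at a start of all 19 broad genes in both conditions and of 6 restricted genes in each, without BCL11B in DMSO and without ACTL6B in FHT-1015 (69.7% and 69.8% of all genes). SOX10 lay at a start of all 19 broad and all 7 restricted genes in DMSO, and of 15 and 3 in FHT-1015, while over all genes it went from 65.5% to 42.2%. MITF at starts went from 13 to 12 broad genes and from 3 to 2 restricted ones (47.5% and 45.1% of all genes). Of 35 other remodeller genes with a start, 34 had H3K27ac there in both conditions. TFAP2A lay at 33 of these in DMSO and 34 in FHT-1015, SOX10 at 33 and 25, and MITF at 23 in each. At the 4 restricted genes without H3K27ac at a start the SOX10 peaks of DMSO were weak, with a −log10 p of 6.34 at ACTL6B, 7.78 at BCL11B, 2.14 at DPF1 and 3.01 at DPF3. Limited to a −log10 p of 10 or more, SOX10 lay at a start of 15 broad and 2 restricted genes in DMSO (46.9% of all genes).

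**Figure D2:**
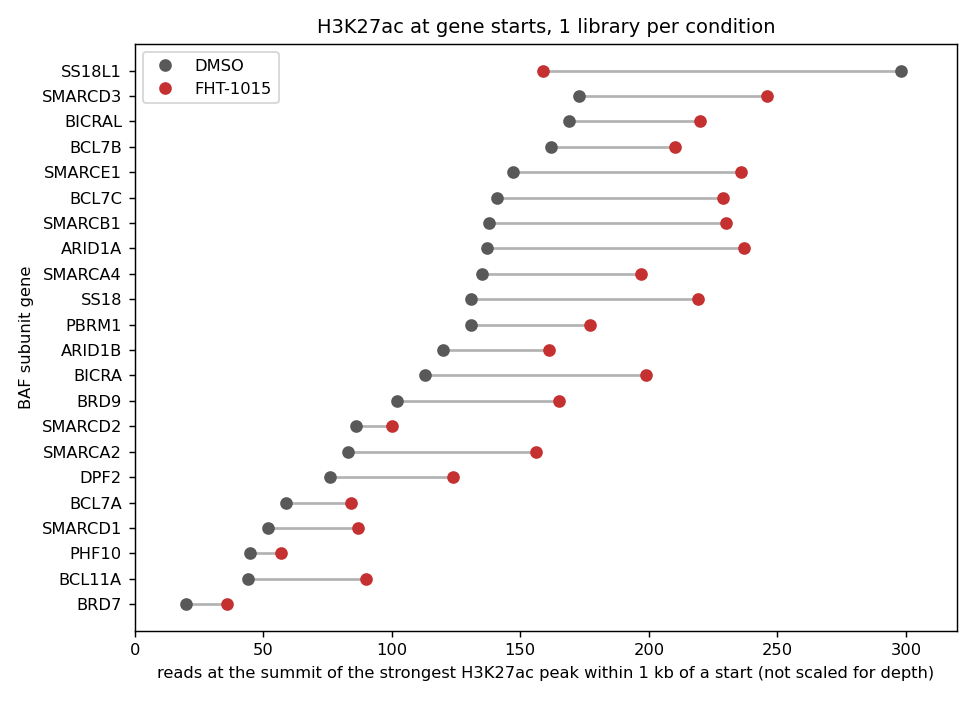
Reads at the summit of the strongest H3K27ac peak within 1 kb of a start (x axis, not scaled for depth) in DMSO (grey) and FHT-1015 (red) for the 22 subunit genes that had one in both libraries, 1 library per condition. The red point lies to the right at 21 genes and to the left at SS18L1, which had 298 reads in DMSO and 159 in FHT-1015. The 2 peaks compared do not overlap at SS18L1, ARID1B and BRD7.

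The tissue-restricted genes differed from the broadly expressed ones most in H3K27ac. Of 47 DMSO H3K27ac peaks in the 7 restricted windows 12 were retained (25.5%, 15.3 to 39.5%), against 152 of 216 in the 24 broad windows (70.4%, 64.0 to 76.1%). The difference was −44.8 percentage points (95% interval −56.6 to −29.5, counting error only). None of the 12 H3K27ac peaks of FHT-1015 in restricted windows was seen only there, against 72 of 217 in broad windows, where ARID1B held 46 of the 72 and SMARCC1 13 (17.9% over all genes). These peaks came from few loci: SS18L1 had 27 of the 47, DPF3 8, BCL11A 6, SMARCD3 5 and DPF1 1, and ACTL6B and BCL11B had none in either condition. Among genes with an annotated start, the difference lay in peaks away from it. There 6 of 41 were retained in the restricted windows (14.6%) and 81 of 126 in the broad ones (64.3%). ARID1B held 92 of the broad DMSO peaks, 2 of them at a start, and 65 of the 92 were retained. Without ARID1B the difference over all H3K27ac peaks was −44.6 points. Shares away from starts without ARID1B are not given. At starts, all 6 restricted peaks and 36 of 37 broad ones were retained. The peaks at starts were also much stronger. Their median −log10 p was 59.0 against 5.32 away from starts in broad windows, and 64.4 against 5.65 in restricted ones.

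SOX10 peaks were also retained less in the restricted windows, 7 of 45 (15.6%) against 62 of 190 (32.6%), a difference of −17.1 percentage points (−27.5 to −2.44), and of −46.3 points with the lists cut to an equal number of peaks. For MITF the shares were 11 of 30 (36.7%) and 73 of 136 (53.7%), and for TFAP2A 64.4% and 71.4%. The interval of the MITF difference, −33.9 to 2.68, held 0. Without DPF3 the difference was −5.85 points for MITF and 0.27 for TFAP2A. SMARCA4 peaks went the other way by 9.38 points (73.8% against 64.5%, interval −4.02 to 20.8), and this order turned when both lists were limited to a −log10 p of 10 or more (−7.89 points). Covered SMARCA4 length over the restricted windows was 1.32 times that in DMSO, while covered H3K27ac length was 0.483 times.

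**Figure D3:**
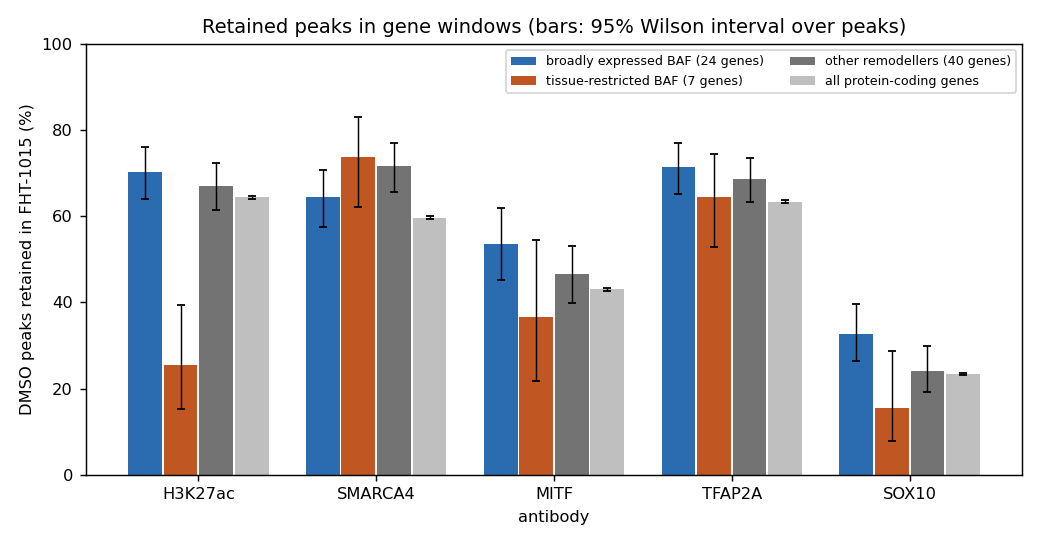
Share of DMSO peaks retained in FHT-1015 (y axis, %) for each antibody in the windows of 24 broadly expressed BAF genes, 7 tissue-restricted BAF genes, 40 other remodeller genes and all protein-coding genes, with 95% Wilson intervals over peaks. The tissue-restricted bar for H3K27ac stands at 25.5%, below the other 3 at 64.4 to 70.4%, and all SOX10 bars are low.

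DPF3, a PHD-finger subunit known from heart and muscle, lies on chromosome 14 at 72609034 to 72894101 and had no H3K27ac peak at its starts in either condition. In DMSO a group of sites deep in the gene carried several proteins together. At a site 183432 bp from a start, SOX10 (chr14:72708566-72709217) had 147 reads, MITF (chr14:72708295-72709028) 75, TFAP2A (chr14:72708048-72709099) 187, SMARCA4 66 and H3K27ac 31. In FHT-1015 only SMARCA4 was still called there, at 26 reads. The strongest H3K27ac peak of the gene (chr14:72714278-72716102, 89 reads) and the next (chr14:72725271-72727288, 47 reads) were lost. With them went MITF peaks of 60 and 69 reads, TFAP2A peaks of 108 and 70 reads and SOX10 peaks of 43 reads each.

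In all, DPF3 went from 8 to 0 H3K27ac peaks and from 8 to 0 SOX10 peaks. None of its 7 MITF peaks was retained, and the 8 MITF peaks of FHT-1015 lay elsewhere and were weak, with a −log10 p of up to 4.35. TFAP2A retained 9 of 20 peaks and SMARCA4 10 of 16. At the start SMARCA4 went from 21 to 35 reads and TFAP2A (chr14:72892986-72893612) from 37 to 44. A weak SOX10 peak there (7 reads) was lost. The window's far end overlaps RGS6, and the H3K27ac, SOX10 and TFAP2A peaks of DMSO near that end, 274459 bp or more from a start, lie in both genes.

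**Figure D4:**
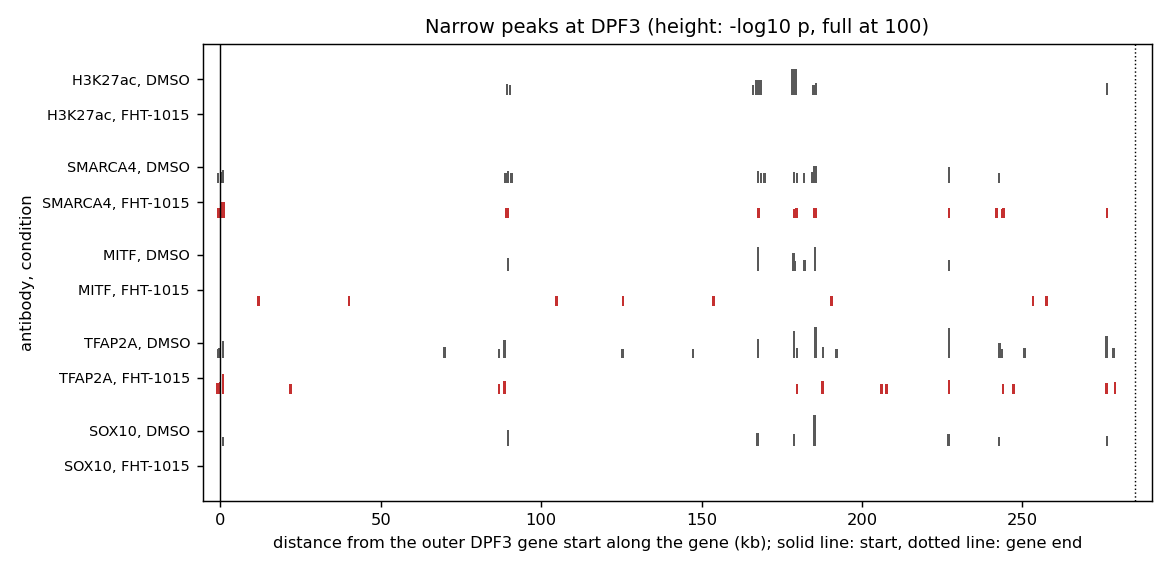
Narrow peaks along DPF3 by distance from its outer start (x axis, kb), in DMSO (grey) and FHT-1015 (red) for each antibody, with bar height showing −log10 p up to 100 and bars drawn wide enough to be seen. The H3K27ac and SOX10 rows are empty in FHT-1015, and SMARCA4 and TFAP2A bars remain at the start.

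SS18L1, a paralogue of SS18 known from neurons, lies on chromosome 20 at 62143769 to 62182514 and carried the densest H3K27ac of the restricted genes, covering 44.9% of its window in DMSO and 19.6% in FHT-1015. The peak that begins 358 bp inside the gene (chr20:62144127-62150593) had 298 reads in DMSO, and in FHT-1015 the peak over it (chr20:62144096-62147465) was shorter, with 169 reads. At a site 2152 bp from the start, MITF (chr20:62145921-62147069) went from 338 to 94 reads, the strongest MITF peak of any subunit gene in DMSO. SOX10 at this site (chr20:62145600-62146779, 180 reads) was lost, and TFAP2A (55 reads) too. SMARCA4 went from 78 reads in a short peak to 55 in a long one (chr20:62144267-62147863). The other SS18L1 sites did not all follow. TFAP2A at the start, over the last of the 3 GCCNNNGGC matches printed above, went from 26 to 43 reads. H3K27ac over the PSMA7 side of the start went from 99 to 159 reads, and H3K27ac at the gene's end, shared with MTG2, from 140 to 237.

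**Figure D5:**
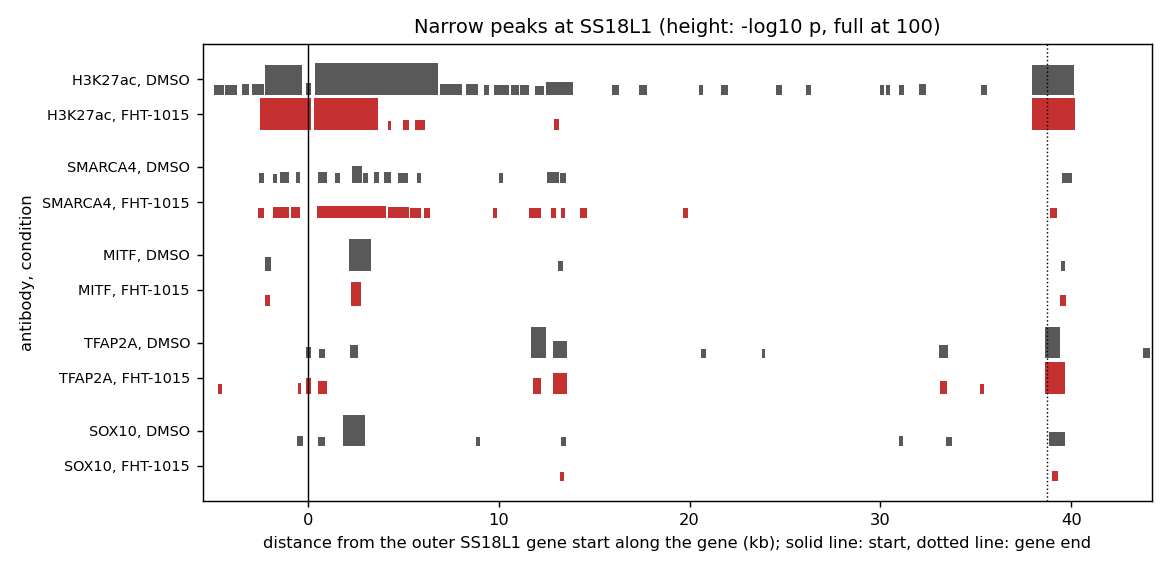
Narrow peaks along SS18L1 by distance from its start (x axis, kb), in DMSO (grey) and FHT-1015 (red), with bar height showing −log10 p up to 100. The block of H3K27ac after the start is shorter in FHT-1015, the small H3K27ac bars further in are mostly gone, and the large MITF bar is reduced and the SOX10 bar absent close to the start.

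ACTL6B, the neuronal counterpart of ACTL6A, was the clearest gain at a paralogue. It had no H3K27ac peak and no MITF peak in either condition. A SMARCA4 peak over its start (chr7:100655447-100657586, 2140 bp, 35 reads, −log10 p 25.7) was called in FHT-1015 with no DMSO peak under it, and it was the strongest SMARCA4 peak seen only in FHT-1015 in any subunit gene. The peak spans the ACTL6B promoter printed above. TFAP2A on the same start (chr7:100656191-100656570, 29 reads) and SOX10 (14 reads) were lost. SMARCA4 peaks at starts went from 5 to 7 of the 7 restricted genes and from 18 to 19 of the 19 broad ones, and over all genes from 60.1% to 65.6%.

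The remaining restricted genes each had their own pattern. SMARCD3, the muscle and heart paralogue of SMARCD1 and SMARCD2, had H3K27ac at its start with 173 and 246 reads, and retained 1 of 7 SOX10 peaks. Its FHT-1015 SMARCA4 peak at the start (chr7:151248261-151250340) had 56 reads, and a DMSO SMARCA4 peak under it had 34. BCL11A, a zinc-finger subunit of blood and brain, went from 14 to 4 MITF peaks and from 14 to 3 SOX10 peaks, but H3K27ac at its starts went from 44 to 90 reads. At a BCL11A site 48305 bp from a start, TFAP2A (chr2:60479218-60480230) went from 82 to 12 reads, and H3K27ac (21 reads) and SOX10 (28 reads) were lost. BCL11B, its paralogue, had no H3K27ac, and the MITF peak over the CACGTG of its printed promoter (chr14:99272209-99272534, 20 reads) was lost. DPF1, known from neurons, kept its 1 H3K27ac peak, 28 and 34 reads, 5080 bp from its start in DMSO.

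Strong SOX10 sites were followed across all 5 antibodies. Matching counts over all genes or the other remodellers are not given, so whether the pattern is particular to the subunit genes was not tested. The subunit genes held 82 SOX10 peaks of −log10 p 10 or more in DMSO, in 27 genes, and 43 were retained. In FHT-1015 there were 13 such strong peaks in all, and each overlapped a DMSO peak. All 43 retained sites carried H3K27ac in both conditions. At the 39 lost sites H3K27ac went from 33 to 26, MITF from 25 to 11, TFAP2A from 30 to 23 and SMARCA4 from 28 to 25. Sites at the gene's own start retained SOX10 at 15 of 22 and sites further away at 20 of 48, leaving out genes with no annotated start. Of the 15 strong sites in restricted genes 3 were retained, and of the 67 in broad genes 40. All 5 proteins were present at 42 of the 82 sites in DMSO and at 27 in FHT-1015.

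In the subunit genes, few strong FHT-1015 peaks of the other antibodies lacked a DMSO peak of any strength under them. Of the 56 SMARCA4 peaks in FHT-1015 at this strength, 4 had no DMSO peak under them, as did 4 of 124 TFAP2A peaks, 1 of 86 H3K27ac peaks and 1 of 35 MITF peaks. In the other direction, 22 of 149 strong TFAP2A peaks in DMSO, 14 of 59 MITF, 8 of 101 H3K27ac and 3 of 48 SMARCA4 peaks had no FHT-1015 peak over them. Both directions set strong peaks against weak and strong peaks of the other list, which leaves fewer unmatched than an equal limit would. The same counts over all genes are not given, so whether they are particular to the subunit genes was not tested. DPF3 held the strongest lost peak of H3K27ac, MITF, TFAP2A and SOX10. At 19 of the 31 genes the window also touched another protein-coding gene, as with DERL3 beside SMARCB1 and TRIP13 beside BRD9, and such a peak may belong to the neighbour.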

How the data were processed

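ChIP-seq of 5 antibodies in 92-1 cells gave 10 libraries, and an eleventh, the input, had no list used here. The deposited data were 10 narrow peak lists and 4 broad lists (H3K27ac and SMARCA4), each of 1 library. BWA, SAMtools, Picard, MACS2 and the build hg38 are named in the submitters' processing notes, with no versions or settings used here. The deposited score is 10 times the −log10 p in the narrow lists and was not used. The deposited fold (a ratio over the local background) and the deposited −log10 p and −log10 q were used as the authors gave them, to rank and filter peaks and to recover reads. Peaks with the same ends were counted once. Summit reads x solve fold = (x + 1)/(λ + 1) with p the Poisson upper tail over a background λ, an inferred form. It gave whole reads within 0.002 for at least 99.98% of peaks of each list. The SOX10 FHT-1015 library had first to be divided by 0.8896. Relative depth came from the lowest λ per base. The procedure was tested on simulated data. Starts came from RefSeq promoters (GRCh38.p14) for 26 of 31 genes. No start was used for SMARCC1, SMARCC2, ACTL6A, ACTB and ARID2. Intervals are 95% Wilson intervals, and those of a difference are built from them. With 1 library per group no test was possible. Values were given for the ATPase genes, paralogues, genes past the 2-fold rule with a peak of −log10 p of at least 10, and the strongest lost and FHT-1015-only peaks, and the other genes were named by role. The members and lists were chosen with earlier results of these data known. Sequences of peaks were not analysed here. Python 3.11.15, pandas 2.3.3, numpy 2.4.6 and scipy 1.17.1 were used.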

Additional observations from a re-analysis of the deposited data

How the results depend on the processing

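Of the alternative values computed, 107 kept their side or moved by less than the counting error and 54 moved. With both lists limited to a −log10 p of 10 or more, the retained share was 87.1% for H3K27ac, 56.2% for SMARCA4 and 15.9% for SOX10, and the SMARCA4 difference of restricted minus broad genes turned to −7.89 points. Genes at or below 0.5 of the covered length were then 1 for H3K27ac, 3 for SMARCA4, 9 for MITF and 3 for TFAP2A, and genes at or above 2-fold were 14 for SMARCA4, 7 for MITF and 0 for TFAP2A. With lists cut to an equal number of peaks, the retained share was 81.1% for H3K27ac and 54.5% for SOX10, the SOX10 difference was −46.3 points, genes at or below 0.5 were 1 for H3K27ac, 0 for SMARCA4, 0 for TFAP2A and 7 for SOX10, and genes at or above 2-fold were 2 for TFAP2A and 6 for SOX10. When FHT-1015 peaks had to cover 50% of the DMSO peak, SMARCA4 retained 58.0%, MITF 41.6% and SOX10 22.1%. In gene bodies without flanks, 4 genes were at or below 0.5 for H3K27ac and 2 for TFAP2A, and 2 were at or above 2-fold for MITF and 2 for TFAP2A. With the broad lists the SMARCA4 counts were 0 and 3. At 1.5-fold they were 2 and 12, those of MITF 7 and 6, and the lower count of TFAP2A 2. Shares over all genes by covered length are given for the main rule only, so the gene counts in this paragraph have no background beside them.

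At a −log10 p of at least 10, SMARCA4 lay at 9 broad and 3 restricted starts in DMSO, MITF at 3 broad starts in DMSO and at 4 broad and 1 restricted in FHT-1015, and SOX10 at 2 restricted starts in DMSO and at 5 broad and 0 restricted in FHT-1015. Over the start base itself, SMARCA4 lay at 4 broad and 1 restricted genes in DMSO and at 8 and 3 in FHT-1015, MITF at 4 and 1 and then 6 and 1, and SOX10 at 12 and 4 and then 6 and 1. Leaving out ARID1B, SS18L1 or DPF3, alternatives added after seeing the data, moved no retained share and no difference beyond its counting error, although without DPF3 the MITF difference shrank to −5.85 points and that of TFAP2A turned to 0.27. No paired analysis was possible because the labels carry no replicate numbers, and no replicate could be left out. Weak peaks of low read number limit the counts, most of all for MITF in FHT-1015, where the median summit had 8 reads.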
